A study of Arabidopsis thaliana with 20 samples.

Results

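WT *Arabidopsis* seeds cultured for 20 hr on *PAO1* extract and gibberellin (GA) were compared with WT seeds cultured on MS, the germination medium alone. These are 4 of the 20 libraries of the series, chosen by their group, 2 biological replicates on each side. WT seeds are Col-0. The extract is bacteria-free, freeze-dried culture medium of *Pseudomonas aeruginosa* *PAO1*, given at 0.7 mg/ml together with 10 µM GA, and MS seeds received neither. The other WT groups served for reference, on 5 µM paclobutrazol (PAC, an inhibitor of GA synthesis), on 5 µM PAC and 10 µM GA, and on 0.7 mg/ml extract alone. The same 5 media were given to *Δdella* seeds, which are Col-0 and carry mutations in 5 genes (*rgl2-/- rga-/- gai-/- rgl1-/- rgl3-/-*). A group on GA alone is not among the 10 groups, so in the main pair the part of the extract and the part of GA cannot be told apart. The comparison addresses which transcripts differ in extract-exposed seeds when GA is supplied from outside. The deposited table gives 1 FPKM value (fragments of mapped reads scaled to transcript length and library size) per gene and group, with the replicates pooled, so values below have no SD and no test, and depth in reads is unknown.

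GA is perceived by the GID1 receptors, which then bind DELLA proteins, and the F-box protein SLY1 directs DELLA proteins to degradation. DELLA proteins repress germination, in part by keeping up abscisic acid (ABA) signalling through the transcription factors ABI3 and ABI5. Seeds that pass from maturation to germination lose the transcripts of storage and late embryogenesis abundant proteins, and start lipid breakdown, wall loosening and the building of the photosynthetic apparatus.

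After 20 hr the seeds held transcripts of both kinds. The 7 seed markers (storage, oil body and late embryogenesis genes) summed to 706 FPKM on MS and 380 FPKM on extract and GA, against 2670 FPKM on extract alone. The endosperm markers summed to 993 FPKM on MS and 744 FPKM on extract and GA, and differed in direction. *EPR1* (AT2G27380) had 932 and 648 FPKM, *MAN7* had 60.6 and 95.9 FPKM, and *ZOU* was listed at 0 in both. Root hair markers *COBL9* and *EXPA7* were listed at 0 in both groups. *SPCH*, a regulator of the stomatal lineage, was not near 0 (11.3 and 9.21 FPKM). In such bulk RNA, fewer cells of a type and less RNA per cell cannot be told apart.

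A gene was compared if it had at least 1 FPKM in 1 of the 2 groups, and called if the ratio of FPKM + 1 was at least 2-fold. Of 16765 compared genes, 123 were called higher on extract and GA (0.734%) and 140 lower (0.835%), 263 in all (1.57%). The median log2 change over all compared genes was 0.02. Under the same rule, extract alone against MS gave 262 called genes (1.56%) and PAC with GA against MS gave 163 (0.974%). Both share the MS group with the main pair. PAC against MS in *Δdella* seeds, a pair that differs in neither DELLA genes nor extract, gave 135 (0.794%). These counts show how many genes pass the rule in other pairs of pooled groups.

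**Figure D1:**
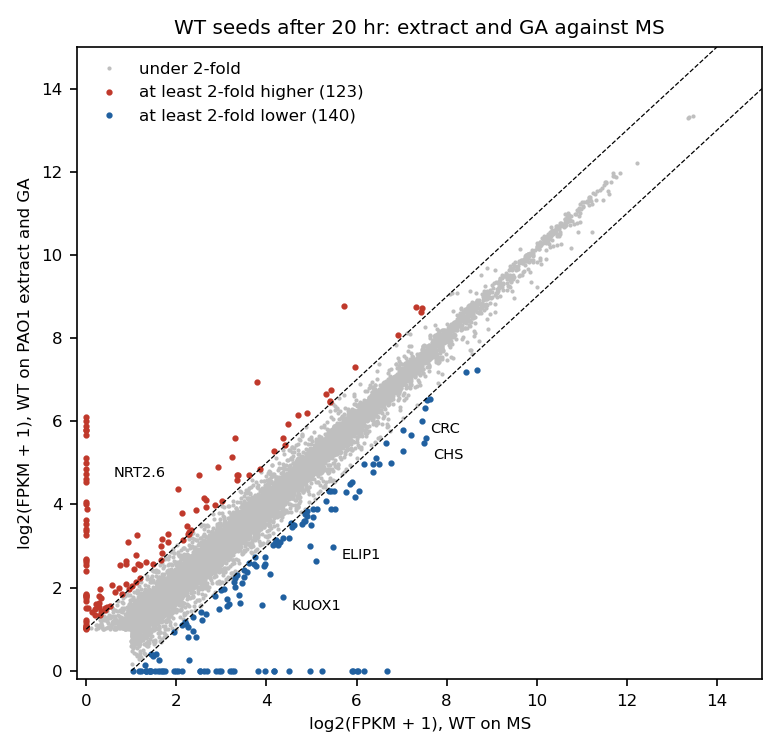
Level of each of the 16765 compared genes in WT seeds on MS (x axis) and on *PAO1* extract and GA (y axis), both as log2(FPKM + 1). Dashed lines mark a 2-fold difference. Of the called genes, 123 lie above and 140 below, and those on the axes are listed at 0 in 1 group.

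The largest changes belonged to short or barely covered genes. Of the 263 called genes, 81 were listed at 0 in 1 of the 2 groups and 90 were shorter than 500 bp. Small RNA genes were called far more often than protein-coding genes: 22 of 46 compared snoRNA genes (47.8%) and 12 of 26 miRNA genes (46.2%), against 209 of 16248 protein-coding genes (1.29%). The snoRNA gene AT3G47347, for example, had 51.5 FPKM on MS and 434 FPKM on extract and GA. It had 311 FPKM on PAC, 383 FPKM on PAC and GA and 232 FPKM on extract alone, so that MS was the low group. Among protein-coding genes the largest differences upward were AT4G25707 (listed at 0 on MS, 30.8 FPKM on extract and GA), AT5G66607 (0 and 25.6 FPKM) and AT1G21738 (0 and 22.1 FPKM). AT2G47844, *CRF10*, AT4G04078, AT3G61571, AT1G74929, AT5G41109, AT4G16240, AT1G72060 and AT1G24388 followed. AT4G25707 was listed at 0 on MS only and had 49.0 FPKM on PAC and GA and 48.2 FPKM in *Δdella* seeds on MS. *CRF10*, a DNA-binding protein of the AP2/ERF type, had 0.01 FPKM on MS, PAC and extract in WT seeds. It had 2.91 FPKM on PAC and GA and 13.9 FPKM on extract and GA. In *Δdella* seeds it had 16.9 FPKM on MS, 12.1 FPKM on PAC and 0.01 FPKM on PAC and GA. Levels there were 6.20 FPKM on extract and 17.5 FPKM on extract and GA, so its lowest and highest values were both with GA. AT3G28918 (58.6 FPKM on MS) and AT1G65541 (16.9 FPKM on MS) were listed at 0 on extract and GA, as were AT1G14642, AT2G03822, AT2G23118, AT2G11271, AT3G01319 and AT3G28193.

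With at least 1 FPKM in both groups and a gene length of at least 500 bp, a filter added after these values were seen, 116 of 15630 protein-coding genes were called (0.742%), 36 higher (0.230%) and 80 lower (0.512%). This changed the balance of directions, from 46.8% to 31.0% higher. Named genes below belong to this set unless their values show otherwise. In 69 of the 80 lower genes, extract and GA was the lowest of the 5 WT groups, and in 24 of the 36 higher genes it was the highest. These genes were chosen by the same extract and GA value, which favours an extreme rank, so the ranks are a description. The same filter left 44 genes for PAC and GA against MS (0.281%), 129 for extract alone against MS (0.825%) and 9 for PAC against MS in *Δdella* seeds (0.0564%). Genes at the edge of the rule were *GA3OX1* and *CYP705A20*. The first had a log2 change of -1.00007 and was called, the second one of -0.999439 and was not.

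Across 31 gene lists with 413 members, 301 were compared and 35 called (11.6%, against 1.57% of all compared genes), 11 higher and 24 lower. The lists were chosen with earlier results of these data known, so this share is a description. Of the lists, 17 held a called gene and 14 held none. Lists of storage proteins, flavonoid enzymes, karrikin markers and ELIPs (early light-induced proteins) lay to the low side, and the list of xenobiotic and mitochondrial stress genes to the high side.

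**Figure D2:**
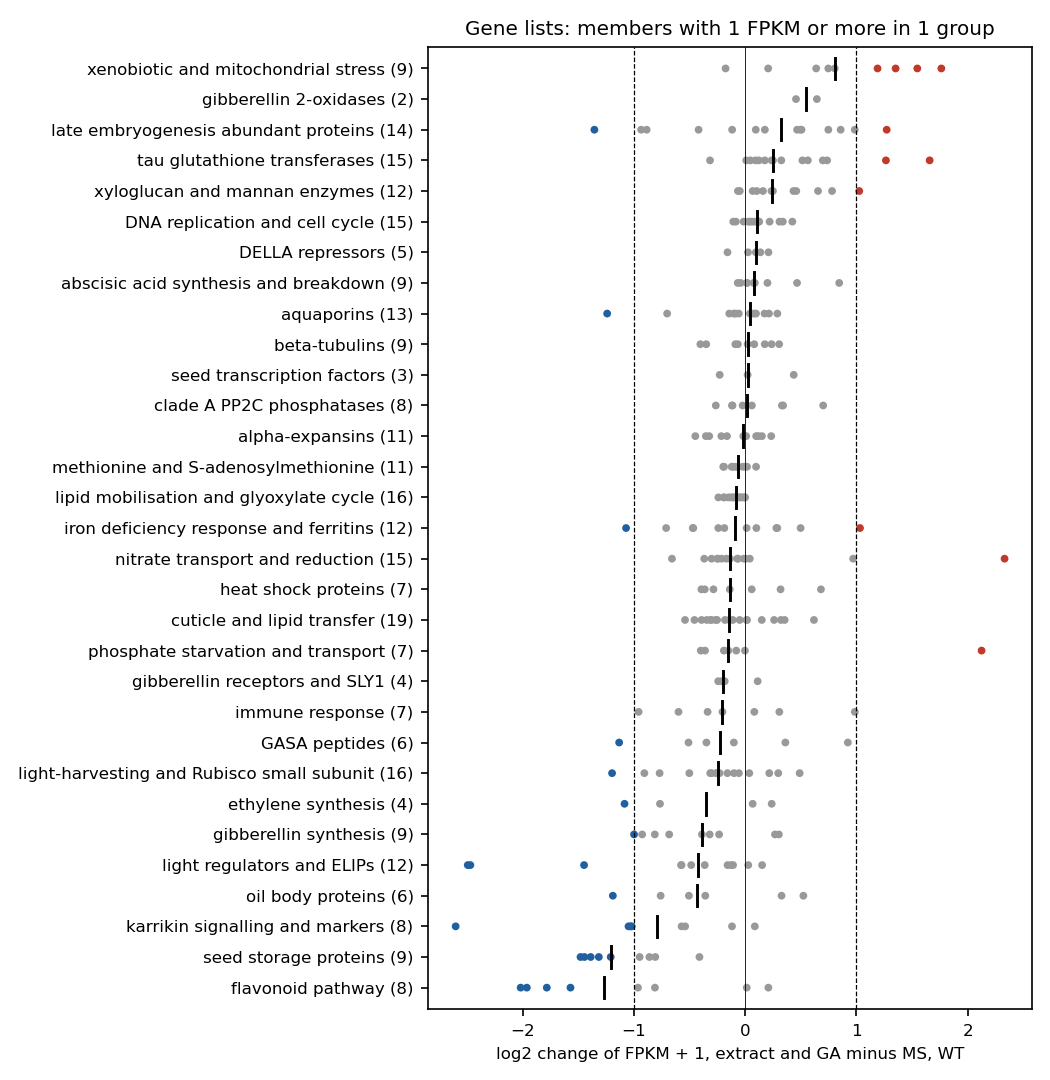
Log2 change of FPKM + 1 (extract and GA minus MS, WT) of the compared members of 31 gene lists, with the number compared in parentheses. Each point is a gene, red and blue points passed 2-fold (dashed lines), and black bars are list medians, from -1.27 for the flavonoid pathway to 0.80 for xenobiotic and mitochondrial stress.

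Flavonoid enzymes were lower on extract and GA. Chalcone synthase, chalcone isomerase, flavonoid 3'-hydroxylase and flavonol synthase, which act in this order or side by side on the way to flavonols, were called lower, 4 of 8 compared members of the flavonoid list (1.57% of all compared genes were called) with a list median of -1.27 (0.02 over all genes). *CHS* (AT5G13930, chromosome 5) had 181 FPKM on MS and 43.9 FPKM on extract and GA. Its deposited locus, from 4488688 to 4495585 of TAIR10, is longer than the RefSeq gene of 1789 bp and does not share its start. It had 62.8 FPKM on extract alone, 278 FPKM on PAC and 183 FPKM on PAC and GA. Both groups with extract were thus below the 3 groups without it, and the log2 change against MS was -2.02. *FLS1*, flavonol synthase, had 30.1 FPKM on MS, 13.0 FPKM on extract and 6.98 FPKM on extract and GA (log2 change -1.96). *F3'H* had 61.8, 27.9 and 17.2 FPKM in the same order (-1.78), and *CHI* (AT3G55120) 7.70, 2.37 and 1.93 FPKM (-1.57). On PAC and GA none of the 4 was below its level on MS. *F3H* (103 and 58.1 FPKM) and *MYB12*, a flavonol regulator (4.33 and 1.73 FPKM), stayed under 2-fold. *MYB111* (1.03 and 1.05 FPKM) and the glycosyltransferase gene *UGT78D1* (AT1G30530; 10.6 and 12.5 FPKM) did not share the lower level. With a pseudocount of 5 FPKM in place of 1 FPKM, *CHI* was under 2-fold (-0.87).

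*ELIP1* and *ELIP2*, chlorophyll-binding proteins of thylakoids exposed to excess light, had the largest differences downward after *KUOX1* among genes past the stricter filter. *ELIP1* (AT3G22840, chromosome 3, 8084447 to 8085560) had 43.7 FPKM on MS, 58.3 FPKM on PAC and GA, 11.4 FPKM on extract and 6.92 FPKM on extract and GA, a log2 change of -2.50. *ELIP2* had 33.4, 43.9, 7.17 and 5.21 FPKM (-2.47). *PSBS*, which carries out the heat dissipation of excess light energy, had 53.1, 58.2, 19.5 and 18.8 FPKM (-1.45). The other 9 compared members of this list were not called, including the light-signalling factors *HY5* (39.5 FPKM on MS and 27.9 FPKM on extract and GA) and *HYH* (41.7 and 27.7 FPKM). *COP1*, which targets HY5 for degradation in darkness, had 14.03 and 12.7 FPKM. The list median was -0.43, with 10 of 12 members below 0. *ELIP1* and *ELIP2* are close paralogs, so reads may be shared between them.

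Some further genes called lower act in the chloroplast. They were picked from the called genes after their values were seen and belong to no list, so they say nothing of how many such genes were compared. *GUN5*, a subunit of magnesium chelatase, had 15.9 FPKM on MS, 15.2 FPKM on PAC and GA, 5.56 FPKM on extract and 4.01 FPKM on extract and GA. *PORB*, protochlorophyllide oxidoreductase, had 71.2, 66.6, 37.5 and 30.2 FPKM. *RCA*, Rubisco activase, had 88.8, 82.1, 47.6 and 30.5 FPKM. *PRK*, phosphoribulokinase, was at 10.8 FPKM on MS and 4.17 FPKM on extract and GA, and *GAPA-2*, a chloroplast glyceraldehyde 3-phosphate dehydrogenase, at 27.4 and 11.1 FPKM. *CDSP32*, a chloroplast thioredoxin-like protein, was at 7.97 and 2.06 FPKM. Outside these functions, and picked in the same way, *RPT2*, a signalling partner of phototropins, was at 26.8 and 10.6 FPKM, and *CHIL*, a chalcone isomerase-like protein, at 33.7 and 13.9 FPKM. The light-harvesting and Rubisco small subunit list held 1 called gene of 16 compared, *LHCB6* (3.79 and 1.09 FPKM). Of all compared genes, 1.57% were called. *CDSP32* (-0.88) and *LHCB6* (-0.53) were under 2-fold with a pseudocount of 5 FPKM. The most abundant member, *RBCS1A*, had 1475 FPKM on MS and 1230 FPKM on extract and GA, and reads of *LHCB1* and *RBCS* paralogs may be shared between copies.

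Upstream windows are shown for *CHS* and *ELIP1* because both lead these groups and both hold the G-box CACGTG, the core bound by HY5 and by bZIP factors of ABA signalling. They are the 300 bases before the RefSeq gene start (TAIR10.1), 5′ to 3′ on the gene's strand, with the G-box in capitals. The window of *CHS* is chr5:4488176-4488475, plus strand, and that of *ELIP1* is chr3:8085670-8085969, minus strand.
CHS: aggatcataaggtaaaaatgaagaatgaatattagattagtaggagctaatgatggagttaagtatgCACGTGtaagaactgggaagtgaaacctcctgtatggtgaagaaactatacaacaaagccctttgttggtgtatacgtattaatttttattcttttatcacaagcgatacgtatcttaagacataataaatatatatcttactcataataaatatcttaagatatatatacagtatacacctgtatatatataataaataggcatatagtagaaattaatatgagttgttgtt
ELIP1: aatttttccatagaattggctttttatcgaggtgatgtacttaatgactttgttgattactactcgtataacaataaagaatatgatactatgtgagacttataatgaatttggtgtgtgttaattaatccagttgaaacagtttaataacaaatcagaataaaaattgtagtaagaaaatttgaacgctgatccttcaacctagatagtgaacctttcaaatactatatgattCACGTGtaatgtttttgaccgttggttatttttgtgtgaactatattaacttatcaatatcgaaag
The *CHS* match ends 228 bases and the *ELIP1* match 61 bases from the RefSeq gene start, counting the last base of the match. Both RefSeq starts lie upstream of the deposited loci, which start at 4488688 for *CHS* and, on the minus strand, at 8085560 for *ELIP1*. The distances thus hold for the RefSeq starts only. Searched on both strands, CACGTG was in 7.09% of the windows of all 27443 nuclear protein-coding genes and in 8.57% of those of the 15629 genes that passed the stricter filter and had a window. It was in 14 of 80 windows of lower genes (17.5%) and in 7 of 36 windows of higher genes (19.4%). The shorter ACGTG, which lies within every G-box, was in 25.6% of all windows, in 29 of 80 lower genes and in 19 of 36 higher genes (52.8%). TTGACC or TTGACT, the W-box letters, were in 32.3% of all windows, 25 of 80 lower genes and 12 of 36 higher genes. A match is a description of the letters and not a bound site.

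Karrikin markers were lower on extract and GA. Karrikins are smoke-derived butenolides perceived by KAI2 with the F-box protein MAX2, which leads to loss of the repressors SMAX1 and SMXL2, and marker genes rise when this pathway is active. The 4 markers of the list, *KUOX1*, *KUF1*, *DLK2* and *BBX20*, were called lower, 4 of 8 compared members of the list (1.57% of all compared genes were called), and none of the signalling components was. *KUOX1* (AT5G07480, chromosome 5, 2367167 to 2369554), an oxidoreductase, had 19.7 FPKM on MS, 27.3 FPKM on PAC and GA, 5.12 FPKM on extract and 2.41 FPKM on extract and GA, a log2 change of -2.60. *KUF1*, an F-box protein, had 6.98, 5.34, 1.73 and 2.86 FPKM (-1.05), and *BBX20*, a B-box factor that also acts in light signalling, had 12.5, 11.2, 5.23 and 5.65 FPKM (-1.02). *DLK2*, a relative of KAI2, had 1.71 and 0.33 FPKM on MS and on extract and GA (-1.03). The receptor gene *KAI2* had 15.9 and 16.9 FPKM and *MAX2* 11.7 and 10.7 FPKM. *SMAX1* (49.6 and 33.0 FPKM) and *SMXL2* (11.3 and 7.43 FPKM) lay lower without reaching 2-fold. With a pseudocount of 5 FPKM *KUOX1* remained called, while *KUF1* (-0.61), *BBX20* (-0.72) and *DLK2* (-0.33) were under 2-fold.

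**Figure D3:**
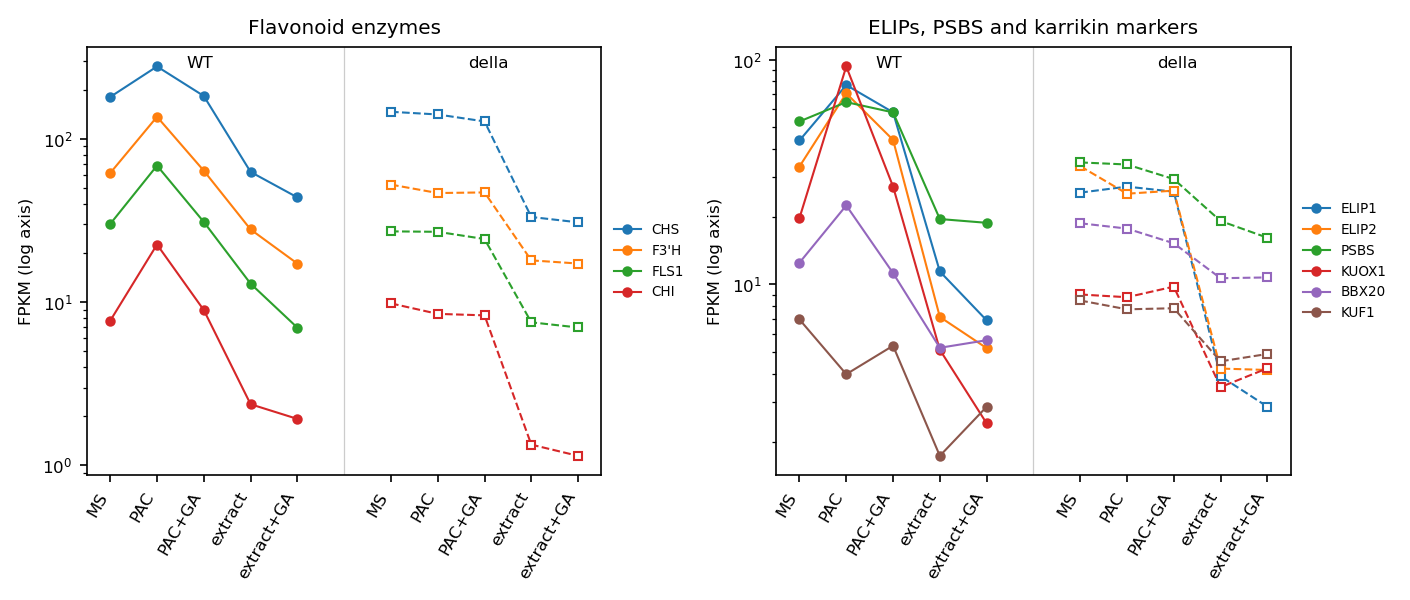
FPKM (log axis) of flavonoid enzymes (left) and of ELIPs, *PSBS* and karrikin markers (right) in the 5 WT groups (filled circles) and the 5 *Δdella* groups (open squares), 1 pooled value per group. *CHS* falls between 128 and 278 FPKM in the 6 groups without extract and between 30.8 and 62.8 FPKM in the 4 groups with it.

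Seed storage transcripts, made during maturation, were lower on extract and GA than on MS, whereas on extract alone the list median was 0.78 above MS. All 9 compared genes of 12S cruciferins and 2S albumins were lower on extract and GA than on MS, and 5 were called (median -1.21). Of all compared genes, 0.835% were called lower. *CRC*, a cruciferin gene (AT4G28520, chromosome 4, 14087556 to 14089796), had 175 FPKM on MS, 344 FPKM on PAC and GA, 690 FPKM on extract and 63.4 FPKM on extract and GA. Extract with GA was thus the lowest of the WT groups and extract alone the highest after PAC (2639 FPKM). *SESA5*, a 2S albumin gene, had 81.0, 41.4, 235 and 30.3 FPKM in the same order, and *CRB*, another cruciferin gene, 18.6, 12.5, 32.8 and 7.49 FPKM. *SESA1* (31.5 and 12.1 FPKM) and *SESA4* (31.0 and 10.4 FPKM) were called too, though reads of *SESA1* to *SESA4*, which are close paralogs in tandem, may be shared. *CRA1*, the most abundant, had 367 and 209 FPKM (-0.81). Over the list, extract and GA was the lowest of the 5 WT groups for all 9 genes.

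The oil body list was mixed. Of its 6 compared genes 4 were below 0 and 2 above (median -0.43, highest 0.52), and extract and GA was the lowest of the WT groups for 4. *OLEO4*, an oleosin of oil bodies, had 19.7 FPKM on MS, 48.4 FPKM on extract and 8.08 FPKM on extract and GA, and was its called member. *TIP3;1*, *M17* and *GASA3*, called members of other lists, were likewise lowest on extract and GA and higher on extract alone than on MS. *TIP3;1*, the seed-specific tonoplast aquaporin, had 14.7, 41.8 and 5.62 FPKM, *M17*, a late embryogenesis abundant protein, 56.4, 132 and 21.4 FPKM, and *GASA3*, a GA-regulated peptide of seeds, 4.88, 23.7 and 1.68 FPKM. *PAP85*, a cupin family storage protein named after its values were seen, had 39.2, 123 and 16.1 FPKM. *OLEO4* (-0.92), *TIP3;1* (-0.89) and *GASA3* (-0.56) were under 2-fold with a pseudocount of 5 FPKM. The summed level of the seed marker list moved with these genes, since it shares members with them. Its member *EM1* went the other way, with 20.7 FPKM on MS and 29.9 FPKM on extract and GA. Of the endosperm markers *EPR1* was lower and *MAN7* higher on extract and GA than on MS. The part of these markers in the result was not tested.

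Late embryogenesis abundant (LEA) genes, which protect dry seeds, were split. Of 14 compared, *M17* was called lower and *LEA7* higher (1.57% of all compared genes were called). The list median was 0.32, with 9 members above 0. *LEA7* had 175 FPKM on MS, 202 FPKM on PAC and GA, 298 FPKM on extract and 425 FPKM on extract and GA, a log2 change of 1.27. *LEA4-5* had 267, 417, 406 and 529 FPKM and lay just under 2-fold (0.99). *EM1* and *EM6*, targets of ABI5 in seeds, were under 2-fold on extract and GA in WT seeds. *EM6* had 34.3 FPKM on MS, 128 FPKM on extract and 36.7 FPKM on extract and GA, and *EM1* had 20.7, 63.0 and 29.9 FPKM. *RAB18* (AT5G66400), a dehydrin, had 121, 306 and 90.0 FPKM. Beyond the list, AT3G02480 and AT3G15670, both annotated as LEA family proteins, were called higher, at 160 and 425 FPKM and at 119 and 269 FPKM on MS and on extract and GA. *LTI65*, a gene induced by drought and ABA (also named *RD29B*), had 5.30 and 16.3 FPKM.

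In the list of xenobiotic and mitochondrial stress genes 4 of 9 compared were called, all higher (0.734% of all compared genes were called higher), with a median of 0.80. *AOX1A*, the alternative oxidase of mitochondria and the standard marker of mitochondrial dysfunction (AT3G22370, chromosome 3, 7906791 to 7908740), had 0.83 FPKM on MS, 1.18 FPKM on PAC and GA, 2.21 FPKM on extract and 5.21 FPKM on extract and GA. It was highest of the WT groups on extract and GA, with a log2 change of 1.76. *OPR1*, a 12-oxophytodienoate reductase-like enzyme, had 5.07, 5.41, 10.8 and 16.8 FPKM (1.55), *CYP81D8*, a cytochrome P450 induced by xenobiotics, 1.27, 0.76, 2.48 and 4.79 FPKM (1.35), and *UGT73B5*, a glycosyltransferase, 0.85, 0.92, 2.33 and 3.22 FPKM (1.19). The close relative *UGT73B4* was at 13.4 and 27.9 FPKM on MS and on extract and GA. *UGT73B4* and *UGT73B5* have the same deposited locus (chromosome 2, 6758681 to 6763501), so reads may be shared between them. Of 15 tau glutathione transferases, which conjugate electrophiles, 14 were above 0 and *GSTU25* and *GSTU22* were called. *GSTU25* had 3.38, 1.82, 5.28 and 12.8 FPKM (1.66) in the same order, and reads may be shared with *GSTU24* and *GSTU26*. Outside these lists there were called genes of the same enzyme families that were lower on extract and GA than on MS, the glutathione transferases *GSTF6* (29.0 and 12.2 FPKM, -1.18) and *GSTL1* (6.27 and 2.48 FPKM, -1.06) and the glycosyltransferase *UGT71C1* (3.63 and 1.19 FPKM, -1.08). AT2G41730, annotated as a calcium-binding site protein, had 0.91 FPKM on MS and 7.49 FPKM on extract and GA. These levels are low. With a pseudocount of 5 FPKM the log2 changes were 0.81 for *AOX1A*, 0.64 for *CYP81D8*, 0.50 for *GSTU22* and 0.49 for *UGT73B5*, all under 2-fold.

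Upstream of 3 called genes of the stricter set lay CTTG followed, 5 bases on, by CAAG, a form of the motif through which NAC factors of mitochondrial retrograde signalling act. All 3 were higher on extract and GA, so their windows are printed with the motif in capitals, again 300 bases before the RefSeq gene start. They are *CYP81D8* (chr4:17571744-17572043, minus strand), AT4G08555 (chr4:5447749-5448048, plus strand) and AT1G76600 (chr1:28746533-28746832, plus strand).
CYP81D8: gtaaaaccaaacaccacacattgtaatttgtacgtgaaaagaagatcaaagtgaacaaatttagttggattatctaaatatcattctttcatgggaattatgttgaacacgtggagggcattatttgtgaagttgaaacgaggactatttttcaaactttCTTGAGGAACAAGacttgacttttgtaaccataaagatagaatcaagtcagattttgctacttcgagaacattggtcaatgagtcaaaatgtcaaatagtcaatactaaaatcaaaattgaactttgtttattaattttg
AT4G08555: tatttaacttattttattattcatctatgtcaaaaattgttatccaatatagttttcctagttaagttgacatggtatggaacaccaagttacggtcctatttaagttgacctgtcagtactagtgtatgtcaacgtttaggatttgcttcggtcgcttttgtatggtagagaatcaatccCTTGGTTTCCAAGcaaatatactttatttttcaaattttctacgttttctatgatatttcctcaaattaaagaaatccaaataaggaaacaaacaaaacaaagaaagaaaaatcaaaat
AT1G76600: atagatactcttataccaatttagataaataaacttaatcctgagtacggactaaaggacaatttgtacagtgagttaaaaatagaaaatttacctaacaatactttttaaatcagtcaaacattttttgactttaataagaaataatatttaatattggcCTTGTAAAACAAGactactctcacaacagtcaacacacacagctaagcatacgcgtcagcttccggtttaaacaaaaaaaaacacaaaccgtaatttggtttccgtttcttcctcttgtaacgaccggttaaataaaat
AT4G08555 encodes a protein of unknown function and had 1.495 FPKM on MS, 5.52 FPKM on extract and 5.09 FPKM on extract and GA. AT1G76600, annotated as a poly polymerase, had 3.72, 4.69 and 10.13 FPKM. Both were under 2-fold with a pseudocount of 5 FPKM (0.64 and 0.80). The letters were in 236 of 27443 windows of all genes (0.860%) and in 81 of the 15629 of the stricter set (0.518%), 3 of them among the 36 higher genes (8.33%) and 0 among the 80 lower genes. The related form with CACG in place of CAAG was in 0.525% of all windows and in no window of the 36 higher and 80 lower genes. Both strands were searched. Of the other called stress genes named above, none held the CAAG form in its window. These were *AOX1A*, *OPR1*, *UGT73B5*, *UGT73B4*, *GSTU25*, *GSTU22* and AT2G41730.

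The nutrient transport genes *NRT2.6* and *PHO1* had the largest upward changes among genes past the stricter filter. *NRT2.6*, a member of the high-affinity nitrate transporter family (AT3G45060, chromosome 3, 16477561 to 16479482), had 3.104 FPKM on MS, 6.91 FPKM on PAC and GA, 26.8 FPKM on extract and 19.7 FPKM on extract and GA, a log2 change of 2.33. *PHO1*, a phosphate exporter (AT3G23430, chromosome 3, 8387508 to 8393296), had 1.19, 1.404, 4.99 and 8.57 FPKM (2.13). Each was the lone called member of its list, of 15 nitrate and 7 phosphate genes compared (1.57% of all compared genes were called). The lists themselves lay slightly to the low side, with 11 nitrate genes (list median -0.14) and 6 phosphate genes (-0.15) below 0. *NRT3.1*, the partner protein of NRT2 transporters, had 6.01 and 12.7 FPKM (0.97), and the nitrate reductases *NIA1* (224 and 173 FPKM) and *NIA2* (25.7 and 15.9 FPKM) were not called. In the iron list, *FER2*, a seed ferritin, had 20.2 and 42.4 FPKM (1.03), and *OPT3*, an oligopeptide transporter family member that loads iron into the phloem, had 10.3 and 4.38 FPKM (-1.07). Equal-sum scaling took *FER2* under 2-fold, to 0.97, and a pseudocount of 5 FPKM took it to 0.91 and *OPT3* to -0.71.

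**Figure D4:**
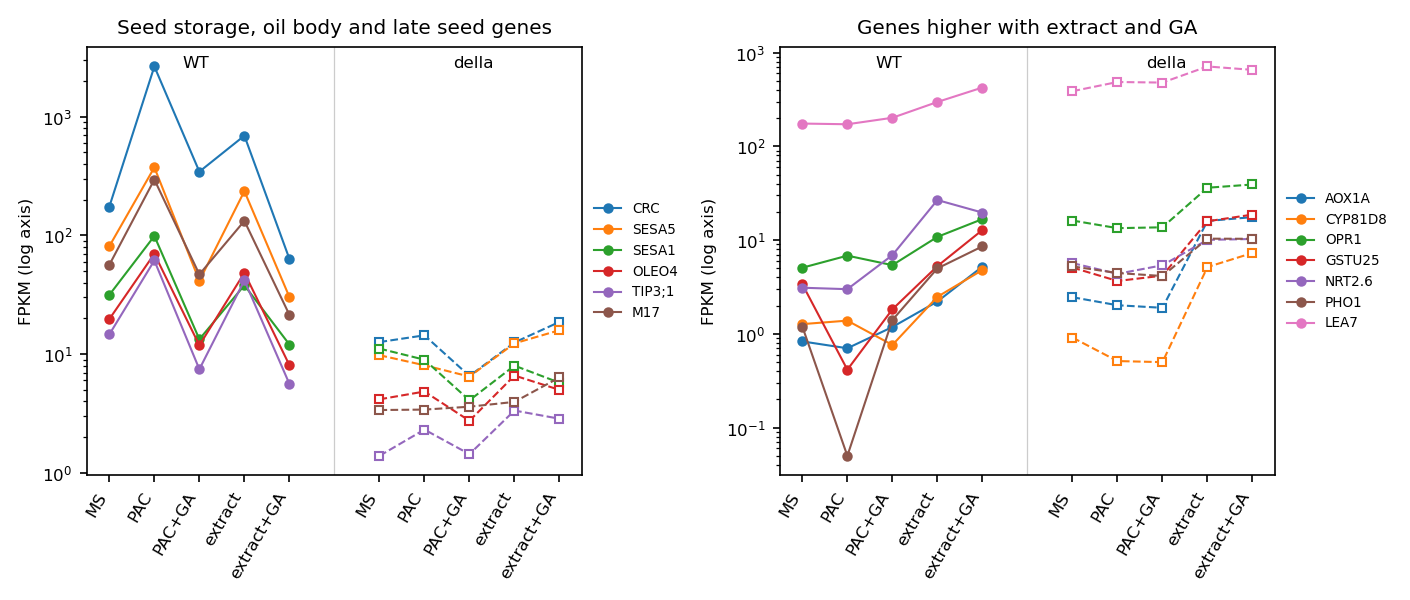
FPKM (log axis) of seed storage, oil body and late seed genes (left) and of genes higher on extract and GA (right) in the 5 WT groups (filled circles) and the 5 *Δdella* groups (open squares), 1 pooled value per group. In WT seeds *CRC* is at 690 FPKM on extract and 63.4 FPKM on extract and GA, while *LEA7* is at 298 and 425 FPKM.

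Of 9 GA synthesis genes 1 was called, lower on extract and GA (0.835% of all compared genes were called lower). *GA3OX1*, the enzyme that makes active GA and a target of feedback repression, had 22.4 FPKM on MS, 93.9 FPKM on PAC, 28.2 FPKM on PAC and GA, 13.9 FPKM on extract and 10.7 FPKM on extract and GA, a log2 change of -1.00007, at the edge of the rule (-0.80 with a pseudocount of 5 FPKM). The 20-oxidase genes of the preceding step lay under 2-fold, *GA20OX1* at 15.5 and 8.41 FPKM on MS and on extract and GA, *GA20OX2* at 5.43 and 3.001 FPKM and *GA20OX3* at 53.7 and 27.8 FPKM. All 3 were higher on PAC and GA (20.6, 14.9 and 117 FPKM) than on MS. *GA3OX2* had 122 and 93.2 FPKM. The compared 2-oxidases, which inactivate GA, were *GA2OX8* (1.16 and 1.96 FPKM) and *GA2OX2* (0.76 and 1.75 FPKM), neither called. Of the receptors, *GID1A* had 22.2 and 18.6 FPKM, and *SLY1* had 30.4 and 33.0 FPKM.

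None of the 5 DELLA genes was called. *RGL2*, the main DELLA repressor of germination, had 170 FPKM on MS and 173 FPKM on extract and GA, and *RGL3* 97.4 and 87.1 FPKM. *GAI* had 70.2 and 77.3 FPKM, *RGA* 85.9 and 91.9 FPKM and *RGL1* 4.69 and 5.58 FPKM. In the ABA pathway *ABI5* had 35.04 FPKM on MS and 47.8 FPKM on extract and GA (0.44), *ABI3* 122 and 104 FPKM and *ABI4* 143 and 145 FPKM. *NCED6*, an ABA synthesis gene of the endosperm, had 0.90 and 0.99 FPKM, and *ABA1* 10.7 and 12.4 FPKM. *CYP707A2*, the ABA 8'-hydroxylase that clears ABA on imbibition, had 6.68 and 12.8 FPKM (0.85). Clade A PP2C genes, which encode repressors of ABA signalling, held no called member of 8 compared, with *PP2CA* at 40.2 and 37.0 FPKM and *ABI1* at 40.6 and 33.6 FPKM. Differences in protein level were not measured in these libraries.

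Genes of the germination machinery mostly stayed under 2-fold. Among 16 genes of lipid mobilisation and the glyoxylate cycle none was called, all 16 were below 0 and the lowest change was -0.24. *ICL*, isocitrate lyase, had 10436 and 10068 FPKM and *MLS*, malate synthase, 3077.3 and 2986 FPKM. None of 11 alpha-expansins, which loosen cell walls, was called, *EXPA1* at 1990 and 1776 FPKM and *EXPA2* at 1579 and 1857 FPKM. *XTH33*, a xyloglucan endotransglucosylase/hydrolase family gene, was the called member of 12 wall enzymes (3.77 and 8.71 FPKM, 1.03). Equal-sum scaling took it to 0.97 and a pseudocount of 5 FPKM to 0.64. Of these 12 wall enzymes 10 were above 0 (median 0.24), among them *MAN7* (60.6 and 95.9 FPKM). DNA replication genes (*TSO2* 48.7 and 56.8 FPKM, *PCNA2* 38.5 and 41.6 FPKM), beta-tubulins (*TUB3* 425 and 399 FPKM, *TUB2* 375 and 358 FPKM), cuticle genes (*LTP2* 243 and 291 FPKM, *PDF1* 260 and 263 FPKM) and heat shock genes (*HSP70* 58.1 and 72.6 FPKM, *HSFA2* 32.2 and 52.2 FPKM) held no called member either. Of 15 compared DNA replication genes 12 were above 0 (median 0.11).

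The methionine, ethylene and immune lists had 1 called gene among 22 compared members (1.57% of all compared genes were called). It was *ACO1*, an ACC oxidase of ethylene synthesis, with 197 FPKM on MS, 137 FPKM on extract and 92.2 FPKM on extract and GA (-1.09). *MS1*, a methionine synthase, had 755 and 662 FPKM on MS and on extract and GA, and *MTO3*, an S-adenosylmethionine synthetase, 417 and 386 FPKM. *RBOHD*, the oxidase of the immune oxidative burst, had 64.7 and 42.3 FPKM. *CYP79B2*, which opens indole glucosinolate and camalexin synthesis, had 28.5 and 57.5 FPKM (0.99), just under the rule, and its relative *CYP79B3*, on none of the lists, was called at 9.23 and 22.9 FPKM (0.97, under 2-fold, with a pseudocount of 5 FPKM).

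Further genes past the stricter filter, named by the size of their change after it was added, had no list. Lower on extract and GA were the RING-finger gene AT2G47560 (13.8 and 2.00 FPKM), *AUF2*, an F-box gene (9.63 and 2.08 FPKM), *CML38*, a calmodulin-like gene (108 and 31.2 FPKM), *RALF1*, a peptide that restrains root growth (42.1 and 13.9 FPKM), *NF-YB3*, a transcription factor subunit (9.41 and 2.54 FPKM), and *TDT*, the vacuolar malate transporter (6.67 and 1.81 FPKM). AT5G26200, a mitochondrial carrier, AT5G65207, AT4G28290 and *GER1*, a germin-like gene, had log2 changes of -1.64, -1.53, -1.43 and -1.40. Higher were *AGAL2*, an alpha-galactosidase (21.4 and 59.8 FPKM), the GDSL lipase gene AT1G71250 (1.14 and 5.92 FPKM), the cold-regulated gene AT3G03341 (25.1 and 69.8 FPKM), AT5G12950 (61.9 and 158 FPKM) and *CLE1*, a signalling peptide gene (5.26 and 14.3 FPKM). AT1G49470, AT3G55910, AT3G44006, AT3G26539, AT3G13240, AT5G65609 and AT4G30650 had changes between 1.17 and 1.402. With a pseudocount of 5 FPKM *NF-YB3*, *TDT*, *GER1*, *CLE1*, AT1G71250, AT1G49470, AT3G55910, AT5G65609 and AT4G30650 were under 2-fold.

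The *Δdella* groups are separate libraries, so the same pair of media there is a second reading of these genes. Of the 116 genes, 96 (82.8%) had the same sign in *Δdella* seeds, 29 of 36 higher and 67 of 80 lower, against 65.4% of all 15630 genes under that filter. At least 2-fold in the same direction in *Δdella* seeds were 8 of the higher and 19 of the lower genes, and none was 2-fold in the opposite direction. Under the same filter 0.565% of all genes were called in *Δdella* seeds. For the 263 genes of the wider rule the same sign was found in 63.5%, which is close to the 65.0% over all compared genes. The share thus depended on the filter. Across the 15630 genes, which are not independent replicates, Pearson's r of the changes in the 2 genotypes was 0.45 and Spearman's rho 0.41. The points share library, depth and base composition within each group.

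**Figure D5:**
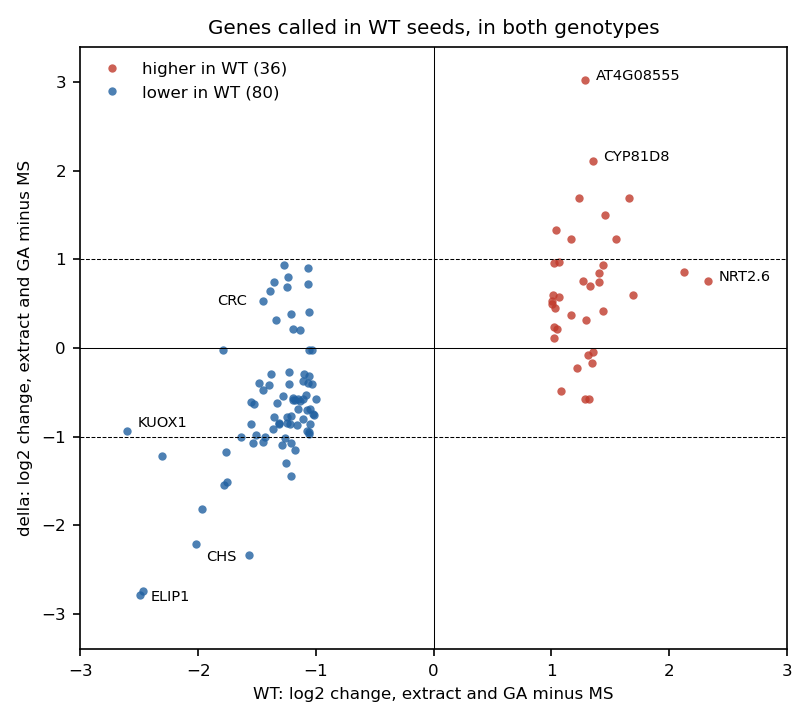
Log2 change of FPKM + 1 (extract and GA minus MS) in WT (x axis) and *Δdella* seeds (y axis) for the 116 genes called in WT with at least 1 FPKM in both groups and 500 bp or more. Dashed lines mark 2-fold in *Δdella* seeds. *ELIP1* and *CHS* are low in both genotypes, and *CRC* lies at -1.45 in WT and 0.53 in *Δdella* seeds.

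In *Δdella* seeds the called ELIP, *PSBS* and flavonoid genes were lower on extract and GA too. *CHS* had 147 FPKM on MS and 30.8 FPKM on extract and GA, *ELIP1* 25.6 and 2.86 FPKM, *CHI* 9.83 and 1.14 FPKM and *GUN5* 8.93 and 2.47 FPKM. The log2 changes were -2.21, -2.79, -2.34 and -1.52. The flavonoid list median in *Δdella* seeds was -1.26, with 7 of 8 members of the same sign as in WT seeds. The 4 karrikin markers were lower there as well, but by under 2-fold. *KUOX1* was at 9.02 and 4.23 FPKM (-0.94), *KUF1* at 8.48 and 4.90 FPKM (-0.68) and *BBX20* at 18.7 and 10.7 FPKM (-0.75). *DLK2* was at 0.69 and 0.34 FPKM (-0.33). Of the karrikin list, 7 of 8 members had the same sign as in WT seeds.

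Xenobiotic and mitochondrial stress genes were on the high side in *Δdella* seeds as well. *AOX1A* had 2.46 and 17.59 FPKM (2.43), AT2G41730 0.38 and 40.5 FPKM (4.91), AT4G08555 0.99 and 15.2 FPKM (3.02), *CYP81D8* 0.91 and 7.29 FPKM (2.12) and *OPR1* 16.2 and 39.2 FPKM (1.23). All 9 compared members of the xenobiotic and mitochondrial stress list had the same sign in both genotypes, with a *Δdella* median of 1.11. *NRT2.6* (5.68 and 10.3 FPKM) and *PHO1* (5.24 and 10.3 FPKM) were higher by under 2-fold.

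Storage genes had low levels in *Δdella* seeds and no common direction. *CRC* had 12.6 FPKM on MS and 18.7 FPKM on extract and GA, *SESA5* 9.80 and 15.9 FPKM, and *SESA1* 11.1 and 5.75 FPKM. Of the 9 genes, 5 had the same sign as in WT seeds, and the median was -0.04. *CRA1*, at 22.7 and 56.0 FPKM, was 2-fold higher there (1.27) and lower in WT seeds (-0.81). Whether the 2 genotypes differ in these changes was not tested. *GASA1*, a GA-regulated peptide gene named after its values were seen, had 1.305 and 3.37 FPKM in WT and 9.29 and 2.603 FPKM in *Δdella* seeds, log2 changes of 0.92 and -1.51.

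Extract alone against PAC and GA in WT seeds uses neither group of the main pair, although it differs in PAC and GA as well as in extract. Of the 116 genes, 91 (78.4%) had the same sign in that pair, 26 of 36 higher and 65 of 80 lower, against 57.5% over all 15630 genes, and the medians were 0.56 for the higher and -0.68 for the lower genes. Storage genes ran the other way, with a list median of 1.44 for extract alone against PAC and GA and -1.21 for the main pair. Adding GA to the extract, which shares the extract and GA group with the main pair, called 102 genes under the stricter filter in WT seeds (0.651%), 21 higher (0.134%) and 81 lower (0.517%), and 6 in *Δdella* seeds (0.0376%). On that contrast the medians were -1.79 for storage proteins, -1.87 for oil body proteins, -0.43 for the flavonoid pathway and 0.34 for xenobiotic and mitochondrial stress.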

How the data were processed

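Seed RNA of 20 libraries, 2 biological replicates in each of 10 groups, was prepared with a TruSeq Stranded mRNA kit and read from 1 end over 50 bp. Mapping (TopHat, TAIR10) and quantification (Cuffdiff, replicates pooled) were done by the authors. Tool versions, the annotation release, the strand setting and the library scaling were not stated, so antisense and overlapping genes cannot be separated here. FPKM values, 1 per gene and group, were taken from the table the authors deposited, which covers 33557 genes in 45 pairs of groups. Its columns of fold changes, test statistics, p-values and q-values are the authors' own comparisons and were not used. Without replicate values no test was made. Depth in reads is unknown, and the group totals ranged from 882351 to 988764 FPKM.

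Changes are log2 ratios of FPKM + 1, which understate the change of low genes. Genes with at least 1 FPKM in 1 of the 2 groups were compared and were called at 2-fold. Symbols, classes, lengths and upstream windows came from RefSeq TAIR10.1, matched by locus tag for 32809 identifiers, and gene coordinates from the table. The genes named are the 12 largest changes per direction among called nuclear protein-coding genes, up to 4 called members per list (otherwise the 2 most abundant), 10 genes of GA, ABA and karrikin response, and the 5 largest changes per direction of the same sign in *Δdella* seeds. The 24 largest per direction under the stricter filter, and further list members and genes given for contrast, were added after their values were seen. AT1G28720, AT4G02555, AT3G14475, AT2G20723 and MIR166a also met the rule for *Δdella* seeds and are not described. Lists and genes were chosen with earlier results of these data known. Alternatives were other pseudocounts, filters, thresholds, scalings and gene classes. Python 3.11.15, numpy 2.4.6, pandas 2.3.3, scipy 1.17.1 and matplotlib 3.10.9 were used.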

Additional observations from a re-analysis of the deposited data

Results flagged for a closer look

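In 7 named genes the log2 change of FPKM + 1 between extract with GA and MS was at least 2-fold in both genotypes and of opposite sign. It was 4.73 in WT and -3.13 in *Δdella* seeds for AT5G66607 and 3.16 and -1.60 for AT1G74929. It was negative in WT and positive in *Δdella* seeds for AT1G14642 (-3.27 and 1.24), AT2G03822 (-3.25 and 2.80), AT2G11271 (-2.99 and 3.82), AT3G01319 (-2.94 and 4.35) and AT3G28193 (-2.53 and 2.78). All 7 genes are shorter than 500 bp, and each was listed at 0 in at least 1 of the 10 groups. The difference between genotypes was not tested, since each group has 1 pooled value.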

How the results depend on the processing

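The main counts were 123 higher, 140 lower and 263 in all, with the same sign in *Δdella* seeds for 63.5% (95% exact binomial interval 57.4% to 69.3%, counting error only). That interval treats genes as independent trials, which they are not. A pseudocount of 0.1 FPKM gave 255, 232 and 487, and one of 5 FPKM gave 49, 63 and 112. Requiring 5 FPKM in 1 group gave 74 higher and 175 in all. A 1.5-fold threshold gave 427, 406 and 833 with a same-sign share of 71.2%, and a 3-fold threshold 46, 47 and 93 with 49.5%. Without a pseudocount and with 1 FPKM in both groups the share was 76.1%, and 143 of the 243 genes called were also called in the main comparison. With nuclear protein-coding genes only it was 70.3%. The filter added after the data were seen gave 36, 80 and 116 with 82.8%. Median ratio scaling (120 higher and 143 lower), equal-sum scaling (109 and 163) and no filter (123 and 140) stayed within 1.5 times. Equal-sum scaling moved the median of all genes to -0.04 from 0.02.

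Of 125 named genes 91 were called, and none of these changed sign with pseudocounts of 0.1 and 5 FPKM or under the scalings. With a pseudocount of 5 FPKM 31 fell under 2-fold, with 0.1 FPKM *GA2OX2* (1.11) and *CYP79B2* (1.01) passed it, and under equal-sum scaling *XTH33* and *FER2* (0.97 each) fell under it. No paired analysis was possible because the table holds 1 pooled value per group, and leaving out each replicate was not run for the same reason. The spread between replicates is therefore unknown for every value.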
